A study of Macaca mulatta with 24 samples.

Results

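The DNA repair and damage checkpoint genes are a set of 48 genes chosen by name, and they were followed here in the colon of irradiated rhesus macaques. Where several probes carry a gene's name, the brightest by its mean over the arrays stood for the gene. Of the 48 genes, 42 were found on the array and all 42 could be tested, out of 14681 named genes tested in all. BRCA2, RAD52, PRKDC, PMS2, ERCC5 and POLH were not analysed here. CHEK1, XRCC4, ERCC2 and FANCD2 were found through a gene number that the array design uses in place of a symbol, and the other 38 were found by symbol, with MRE11A and H2AFX as the array's older names for MRE11 and H2AX.

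RNA from whole-gut colon segments of 24 young-adult male rhesus macaques was measured on 24 single-colour Agilent arrays, with each animal on an array of its own. Irradiated animals had received a whole-body gamma dose (TBI) once, from a cobalt-60 source. The 7 groups were 4 sham-irradiated controls labelled day 4 and, for each of the doses 6.7 Gy and 7.4 Gy, 4 animals on day 4, 4 animals on day 7 and 2 animals on day 12. The same 4 controls served every day, so the 6 comparisons with control share those arrays, and no unirradiated animals of days 7 or 12 were included. Every value below is a log2 signal relative to the 75th percentile of the array it came from, and levels of different genes on this scale are not comparable because they come from different probes. Changes were tested with limma on all 24 arrays, and "past the test" means a Benjamini-Hochberg adjusted p under 0.05 over all probes.

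Cells answer broken DNA in steps. Sensor proteins such as the MRE11-RAD50-NBN complex find double-strand breaks and switch on the kinase ATM, while single-stranded DNA switches on ATR, and these kinases act through CHEK2 and CHEK1 to hold the cell cycle. Breaks are then rejoined directly by non-homologous end joining, in which the XRCC5-XRCC6 heterodimer holds the ends and LIG4 with XRCC4 seals them, or are copied from the sister chromatid by homologous recombination, which needs BRCA1 and PALB2. Base excision repair replaces damaged, misplaced or lost bases. OGG1 cuts out oxidised guanine and UNG cuts out uracil, APEX1 nicks the strand, PARP1 marks it and XRCC1 with LIG3 closes it. Bulky damage is left to nucleotide excision repair (XPC, XPA, ERCC1), crosslinks to the Fanconi anemia proteins, replication errors to mismatch repair, and damage that blocks a replication fork to translesion polymerases such as POLK. In the intestine the crypts divide constantly and are known for their sensitivity to radiation, and several of these repair genes are transcribed mainly in dividing cells.

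The tissue carried epithelial markers: the summed level of 11 epithelial genes lay between 667 and 842 times the 75th percentile of the array in controls. On day 4 the same sum lay between 314 and 463 after 6.7-Gy TBI and between 229 and 363 after 7.4-Gy TBI. Of the 11 genes 8 and 9 were past the test and lower, beside 5.39% and 11.4% of all named genes called lower. Of 17 genes of proliferation 5 and 4 were past the test and higher on day 4, beside 5.39% and 10.3% of all named genes called higher, and their summed level was 40.0 to 48.3 in controls against 55.1 to 86.6 and 57.6 to 92.0. Targets of p53 were past the test and higher in 9 and 10 of 15 on day 4. Of 7 neutrophil and macrophage genes 1 and 3 were past the test and higher, and 1 more was lower at the higher dose, with a summed level of 6.26 to 8.18 in controls, 6.18 to 12.8 after 6.7-Gy TBI and 8.28 to 19.4 after 7.4-Gy TBI. Of 6 B lymphocyte genes 1 and 2 were lower, and their sum was 1.99 to 6.18 in controls against 1.35 to 1.85 and 0.984 to 1.49. Of 4 red blood cell genes 2 were lower at each dose, with sums of 136 to 268, 149 to 210 and 134 to 152. After 7.4-Gy TBI, 5 of 9 fibroblast and smooth muscle genes and 2 of 6 endothelial genes were higher, beside 10.3% of all named genes. At that dose 1 of 9 T lymphocyte genes was lower, near the 11.4% of all named genes called lower. After 6.7-Gy TBI these counts were 0, 1 and 0. In whole tissue, fewer cells of a type and less RNA per cell cannot be told apart, and the part that these shifts play in the changes of the repair genes was not tested. The 24 arrays correlated with each other at 0.949 to 0.985, and 66.7% to 85.0% of the probes of an array were well above background.

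On day 4 a small number of repair genes rose, and the same 3 led at both doses: RAD51C, NBN and APEX1. After 6.7-Gy TBI, 5 of the 42 genes (11.9%) were past the test, beside 10.8% of all named genes: RAD51C, NBN, APEX1 and CHEK1 were higher and LIG4 was lower. After 7.4-Gy TBI, 4 of 42 (9.52%) were past the test, beside 21.7% of all named genes: RAD51C, NBN and APEX1 were higher and ERCC1 was lower. The share was therefore near the background at 6.7 Gy and below it at 7.4 Gy. The median change of the 42 genes was 0.16 after 6.7-Gy TBI and 0.22 after 7.4-Gy TBI on the log2 scale, where the median over all named genes was -0.04 and -0.03. The change was above 0 for 30 and 29 of the 42, beside 46.1% and 47.7% of all named genes. After 6.7-Gy TBI the arrays of 7 genes lay wholly above the controls and of 0 genes wholly below, beside 8.85% and 8.46% of all named genes, and after 7.4-Gy TBI 9 lay above and 1 below, beside 13.2% and 12.4%.

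**Figure D1:**
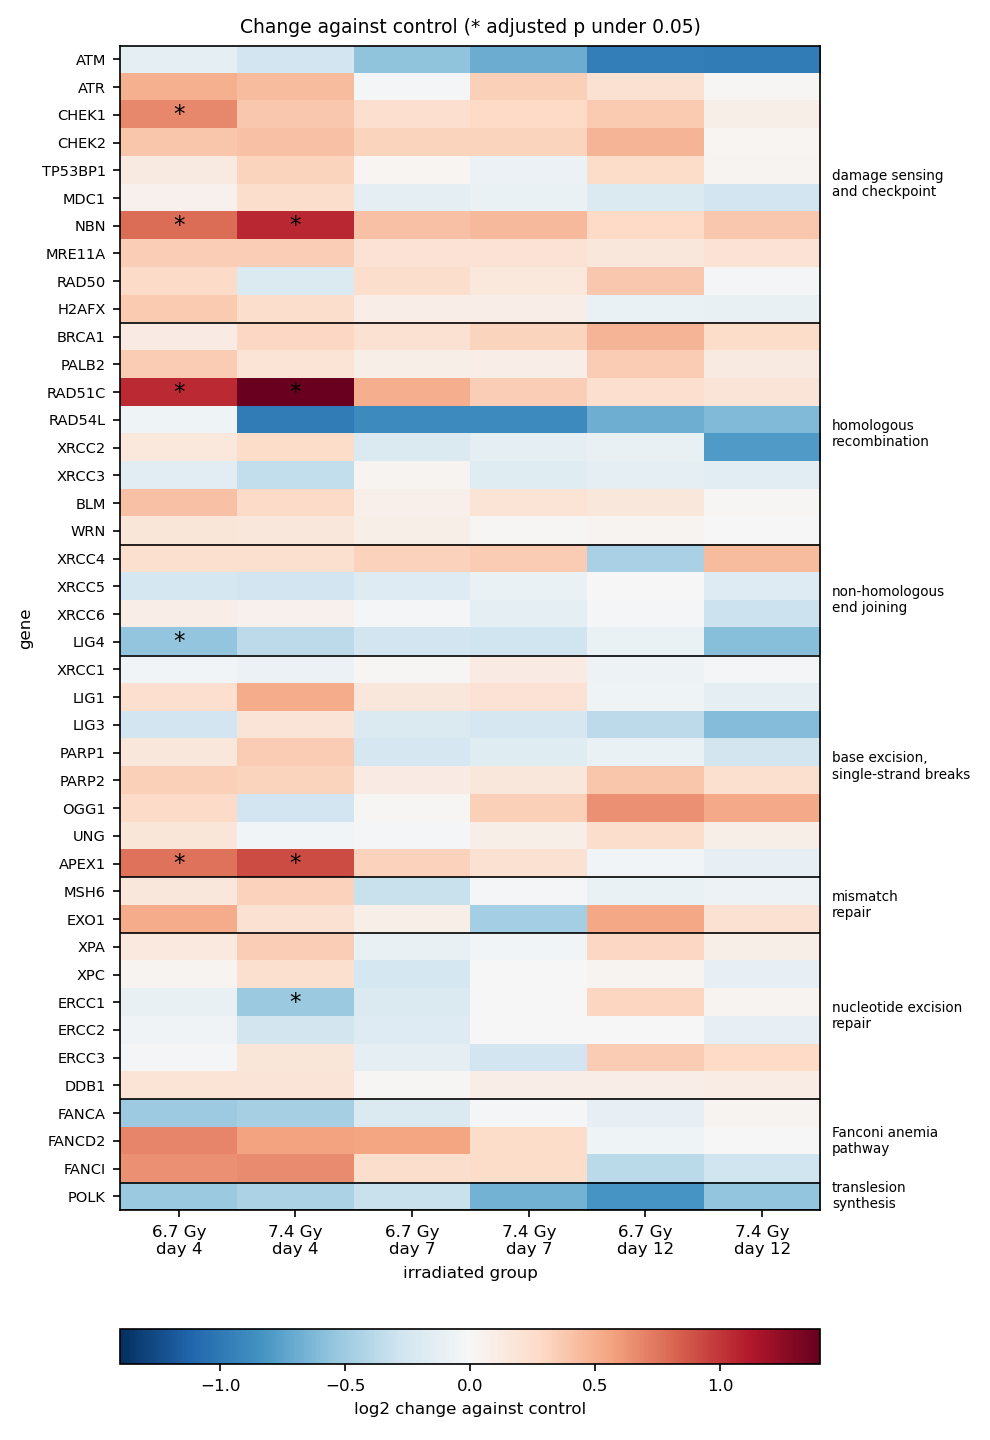
Mean log2 change against control (colour) of each of the 42 repair genes (rows, ordered by pathway) in the 6 irradiated groups (columns). Stars mark adjusted p under 0.05: there are 5 in the 6.7 Gy day 4 column, 4 in the 7.4 Gy day 4 column and 0 in the columns of days 7 and 12.

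RAD51C, which acts in homologous recombination, showed the largest rise among the 42. Its levels were -0.60, -0.40, -0.56 and -0.36 in the controls. After 6.7-Gy TBI on day 4 they were 0.76, 0.51 and 0.42, with the spot of replicate 3 missing as an outlier, and after 7.4-Gy TBI they were 1.12, 0.60, 0.89 and 1.01. All 7 irradiated arrays measured lay above all 4 controls. The change was 1.04 ± 0.22 (SE) on the log2 scale, or 2.06-fold, after 6.7-Gy TBI (adjusted p = 0.00801) and 1.39 ± 0.20, or 2.61-fold, after 7.4-Gy TBI (adjusted p = 0.000245). On day 7 the levels ran from -0.25 to 0.20 after 6.7-Gy TBI over 3 arrays, 1 spot again being missing, and were 0.11, -0.27, -0.80 and 0.42 after 7.4-Gy TBI, which overlapped the controls. On day 12 the 4 arrays lay between -0.41 and -0.20. Neither day was past the test against control.

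NBN, the subunit of the break-sensing complex that recruits ATM, had levels of -0.68, -0.36, -0.09 and -0.18 in the controls. On day 4 they were 0.58, 0.55, 0.44 and 0.27 after 6.7-Gy TBI and 0.77, 0.44, 0.98 and 0.74 after 7.4-Gy TBI, and no irradiated array of that day overlapped the controls. NBN rose by 0.78 ± 0.16 (1.72-fold, adjusted p = 0.00493) and by 1.06 ± 0.16 (2.08-fold, adjusted p = 0.000178). On day 7 the changes were 0.41 and 0.45, with adjusted p of 0.356 and 0.243, and all 4 arrays of the lower dose still lay above the highest control. Its partners in the complex gave smaller values: MRE11A, the nuclease, changed by 0.34 and 0.35 on day 4 (adjusted p = 0.104 and 0.0661), and RAD50, which tethers the ends, by 0.27 and -0.20 (adjusted p = 0.567 and 0.642).

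APEX1, the endonuclease that cuts the strand where a base has been lost, varied little among the controls and least on day 4 at the higher dose. Its levels were 2.29, 2.30, 2.52 and 2.35 in the controls, then 3.13, 3.38, 3.11 and 2.86 on day 4 at 6.7 Gy and 3.28, 3.25, 3.27 and 3.29 after 7.4-Gy TBI. The 2 irradiated groups lay wholly above the controls, and APEX1 rose by 0.76 ± 0.15 (1.69-fold, adjusted p = 0.00454) and by 0.91 ± 0.15 (1.88-fold, adjusted p = 0.000406). On day 12 its 4 arrays were at 2.18, 2.47, 2.21 and 2.28, 1 inside and 3 just below the control range. RAD51C, NBN and APEX1 each had 1 probe on the array.

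**Figure D2:**
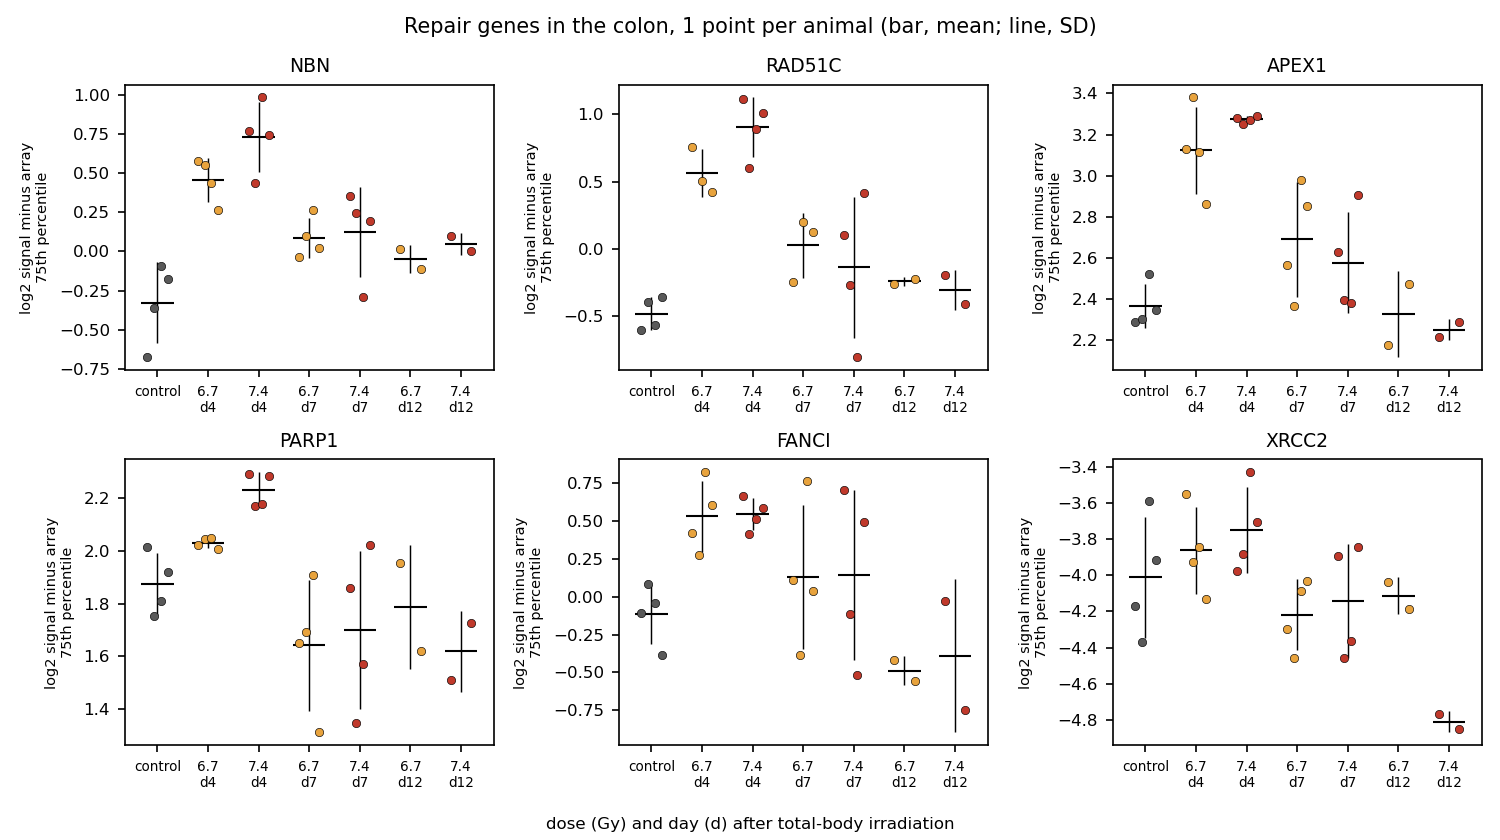
Level of 6 repair genes in each animal (points), as log2 signal minus the array's 75th percentile, by dose and day, with group means (bars) and SD (lines). RAD51C, NBN and APEX1 stand above every control in both day 4 groups, and PARP1 in the 2 day 4 groups reaches 2.29 at most. FANCI is lower on day 12 than on day 4. XRCC2 on day 12 lies below every control at 7.4 Gy but not at 6.7 Gy.

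The arrays of a group were not spread evenly over the slides. The array position on the slide held controls together with 2 of the 4 animals of day 4 at 6.7 Gy, and the other 2 lay with all those of day 4 at 7.4 Gy. Within the shared position, the changes after 6.7-Gy TBI were 1.11 for RAD51C, 0.89 for NBN and 0.89 for APEX1, as large as over all arrays, but with adjusted p of 0.0605, 0.124 and 0.0917 no member was past the test there. With the position as a block, RAD51C, NBN and APEX1 were past the test at both doses, at 1.60, 1.27 and 1.18 after 7.4-Gy TBI. With the slide as a block RAD51C was 0.89 after 6.7-Gy TBI (adjusted p = 0.0895), and with position and scan day together, a setting chosen after seeing the data, only APEX1 was past the test at that dose (adjusted p = 0.03). Day 4 at 7.4 Gy shared no position with the controls, so without the block position and irradiation cannot be told apart there. Its changes with the position as a block rest on the 6.7 Gy day 4 arrays, which lay at both positions. Days 7 and 12 shared no position with the controls either, so position and day cannot be told apart in those comparisons.

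Among the other sensing and checkpoint genes, CHEK1, the kinase that acts below ATR, was past the test on day 4 at 6.7 Gy and is named outside the rule because its values were seen. Its levels were -0.78, -1.12, -1.30 and -1.46 in the controls and -0.18, -0.81, -0.40 and -0.56 after 6.7-Gy TBI, so that 1 irradiated array overlapped the highest control. The change was 0.68 ± 0.21 (adjusted p = 0.0437), and after 7.4-Gy TBI it was 0.37 ± 0.21 (adjusted p = 0.213). The CHEK1 call was lost in 17 of 24 alternatives, among them leaving out control replicate 2, 3 or 4 or irradiated replicate 1, 3 or 4, while the change ran from 0.57 to 0.90. ATR changed by 0.50 and 0.44 and CHEK2 by 0.39 and 0.41 on day 4, with adjusted p from 0.0904 to 0.152, and the 3 probes of CHEK2 gave changes between 0.31 and 0.47. TP53BP1 and MDC1, which bind the chromatin around a break, changed by 0.06 to 0.31, and H2AFX, the histone that is phosphorylated there, by 0.36 and 0.25. A dimmer H2AFX probe gave 0.13 and -0.31.

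ATM, the kinase at the head of the double-strand break response, was the 1 gene of this group with means below control in all 6 irradiated groups. Its levels were -3.39, -2.64, -2.71 and -2.79 in the controls, and its changes were -0.14 and -0.26 on day 4, -0.57 and -0.70 by day 7, then -0.97 and -0.98 by day 12. None was past the test, with adjusted p from 0.451 to 0.838. On day 12 the levels were -3.86 and -3.84 after 6.7-Gy TBI, below every control, and -4.41 and -3.31 after 7.4-Gy TBI, where 1 of 2 arrays was well above background. A second ATM probe changed by -0.18 and -0.13 on day 12 and the third by 0.04 and -0.81, so the size of the difference depended on the probe.

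The other genes of homologous recombination moved less than RAD51C. BRCA1, PALB2, BLM and WRN changed by 0.12 to 0.41 on day 4 and XRCC3 by -0.16 and -0.35, with none past the test, and a second BRCA1 probe gave -0.10 and -0.25. XRCC2, which acts in the same pathway, was dim. Its levels were -4.17, -4.37, -3.59 and -3.92 in controls and -4.77 and -4.85 on day 12 at 7.4 Gy, below every control, where 1 of the 2 arrays was well above background, a change of -0.80 ± 0.23 (adjusted p = 0.331). RAD54L, a DNA motor protein of recombination, was near -3 on most arrays, with 22 arrays between -3.74 and -2.75. The other 2, control replicate 2 at 1.05 and day 4 replicate 4 after 6.7-Gy TBI at 1.07, were from the same slide. RAD54L had 1 probe, and its SE of 0.89 against control for the groups of 4 was the largest among the members.

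Of the 4 end joining genes tested, 1 was past the test against control, LIG4 on day 4 at 6.7 Gy. LIG4, the ligase that seals the ends, had levels of -3.06, -3.17, -3.45 and -3.00 in the controls and -3.82, -3.38, -3.83 and -3.83 on day 4 at 6.7 Gy. One irradiated array overlapped the controls, and LIG4 fell by 0.55 ± 0.16 on the log2 scale (1.46-fold, adjusted p = 0.0354). After 7.4-Gy TBI the levels were -4.03, -3.40, -3.19 and -3.53, a change of -0.37 ± 0.16 (adjusted p = 0.108). The call after 6.7-Gy TBI was lost in 14 of 24 alternatives, among them leaving out control replicate 1, 2 or 4 or irradiated replicate 1, 3 or 4, with changes from -0.66 to -0.32. XRCC5 changed by -0.25 and -0.27 on day 4 at its brightest probe and by 0.29 and 0.24 at its dimmest, and XRCC6 by 0.09 and 0.06.

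XRCC4, the scaffold that holds LIG4, differed among the 7 groups as a whole (moderated F test over all probes, adjusted p = 0.0246). Its levels were -2.06, -2.04, -1.85 and -1.70 in the controls, -2.07 and -2.65 on day 12 at 6.7 Gy and -1.55 and -1.39 on day 12 at 7.4 Gy. The 2 doses of day 12 thus lay on opposite sides of the controls, with a difference of 0.89 (95% interval 0.46 to 1.32) and an adjusted p of 0.89 for the dose contrast. A second XRCC4 probe of similar brightness gave changes of 0.35 and 0.32 on day 12, so the low values after 6.7-Gy TBI were at 1 of 2 probes.

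In base excision and single-strand break repair, APEX1 was the 1 gene of 8 past the test against control at the probe that stood for the gene. PARP1, which senses strand breaks, had levels of 2.01, 1.75, 1.81 and 1.92 in the controls, 2.02, 2.05, 2.05 and 2.01 on day 4 at 6.7 Gy and 2.29, 2.17, 2.18 and 2.28 after 7.4-Gy TBI. The group of the higher dose lay wholly above the controls, and the change was 0.36 ± 0.14 (adjusted p = 0.0855). A much dimmer PARP1 probe, well above background on 13 arrays, changed by -0.28 and -0.49 on day 4. LIG1, the ligase of replication, lay wholly above the controls after 7.4-Gy TBI at 0.52 ± 0.24 (adjusted p = 0.124), as did PARP2 at 0.31 ± 0.17 (adjusted p = 0.198). XRCC1 and UNG changed by -0.09 to 0.17. LIG3 changed by -0.26 after 6.7-Gy TBI and by 0.18 after 7.4-Gy TBI, and its 2 dimmer probes changed by 0.12 to 0.63.

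OGG1, the glycosylase for oxidised guanine, had levels of 1.57, 2.12, 2.03 and 2.11 in the controls, 1.84, 2.24, 2.07 and 2.73 on day 4 at 6.7 Gy and 1.75, 1.42, 1.86 and 1.71 after 7.4-Gy TBI. On day 12 it was at 2.90 and 2.29 after 6.7-Gy TBI and at 2.75 and 2.22 after 7.4-Gy TBI, above all controls, with changes of 0.64 and 0.53 (adjusted p = 0.62 and 0.743). OGG1 had 5 probes, and they did not give the same picture. After 7.4-Gy TBI on day 4 the brightest probe changed by -0.27 and the second by 0.67 (adjusted p = 0.0438, past the test), and the other 3 by 0.00 to 0.07.

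Of the 6 genes of nucleotide excision repair, ERCC1, which with its partner cuts the strand on the 5′ side of the damage, was past the test and lower after 7.4-Gy TBI. Its levels were 1.23, 0.69, 1.30 and 1.20 in the controls, 0.50, 1.09, 1.18 and 1.24 on day 4 at 6.7 Gy and 0.66, 0.30, 0.63 and 0.77 after 7.4-Gy TBI, with 1 control inside the range of the higher dose. ERCC1 fell by 0.52 ± 0.16 on the log2 scale (1.43-fold, adjusted p = 0.0284), and a second probe gave -0.59. The call was lost in 12 of 22 alternatives, among them leaving out control replicate 1, 3 or 4 or irradiated replicate 1, 2 or 3, and the change ran from -0.93 to -0.28. XPA, XPC and DDB1, which recognise the damage or verify it, changed by 0.04 to 0.35 on day 4, and the helicases ERCC2 and ERCC3 by -0.25 to 0.17, with none past the test.

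None of the 3 Fanconi anemia genes was past the test against control. FANCI and FANCD2 form the pair that is ubiquitinated at a crosslink, and both were higher than every control in both day 4 groups. FANCI was at -0.11, 0.08, -0.04 and -0.39 in the controls, at 0.42, 0.28, 0.82 and 0.60 after 6.7-Gy TBI and at 0.67, 0.41, 0.51 and 0.59 after 7.4-Gy TBI. FANCD2 was at -2.95, -2.36, -2.40 and -2.28 in the controls, at -1.70, -2.06, -1.71 and -1.77 after 6.7-Gy TBI and at -1.79, -2.15, -2.16 and -1.64 after 7.4-Gy TBI. The changes were 0.64 and 0.66 for FANCI (adjusted p = 0.105 and 0.0673) and 0.69 and 0.56 for FANCD2 (adjusted p = 0.0773 and 0.106). A second FANCI probe changed by 0.58 and 0.32 (adjusted p = 0.21 and 0.464). FANCA, a subunit of the core complex that ubiquitinates the pair, changed by -0.51 and -0.46 (adjusted p = 0.301 and 0.303) at its brighter probe and by -0.08 and -0.35 at its dimmer one.

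Mismatch repair and translesion synthesis were represented by few genes. MSH6, a subunit of a mismatch sensor, changed by 0.15 and 0.32 on day 4. EXO1, the nuclease that removes the strand with the error, varied widely within groups: its levels were 0.06, -2.15, 0.00 and 0.35 on day 4 at 6.7 Gy and -0.96, -2.22, 0.03 and 0.19 after 7.4-Gy TBI, against -0.93, -0.59, -1.71 and -0.57 in the controls. Its SE of 0.54 was the second largest of the 42, and a second EXO1 probe changed alike, by 0.59 and 0.35 beside 0.51 and 0.21. POLK, a polymerase that copies past bulky damage, was lower than the control mean in all 6 groups, at its brightest probe, by 0.31 to 0.83 on the log2 scale, with adjusted p from 0.238 to 0.822. A second POLK probe changed by 0.00 on day 4 at 7.4 Gy, and the third by 0.24 on day 7 at 6.7 Gy.

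**Figure D3:**
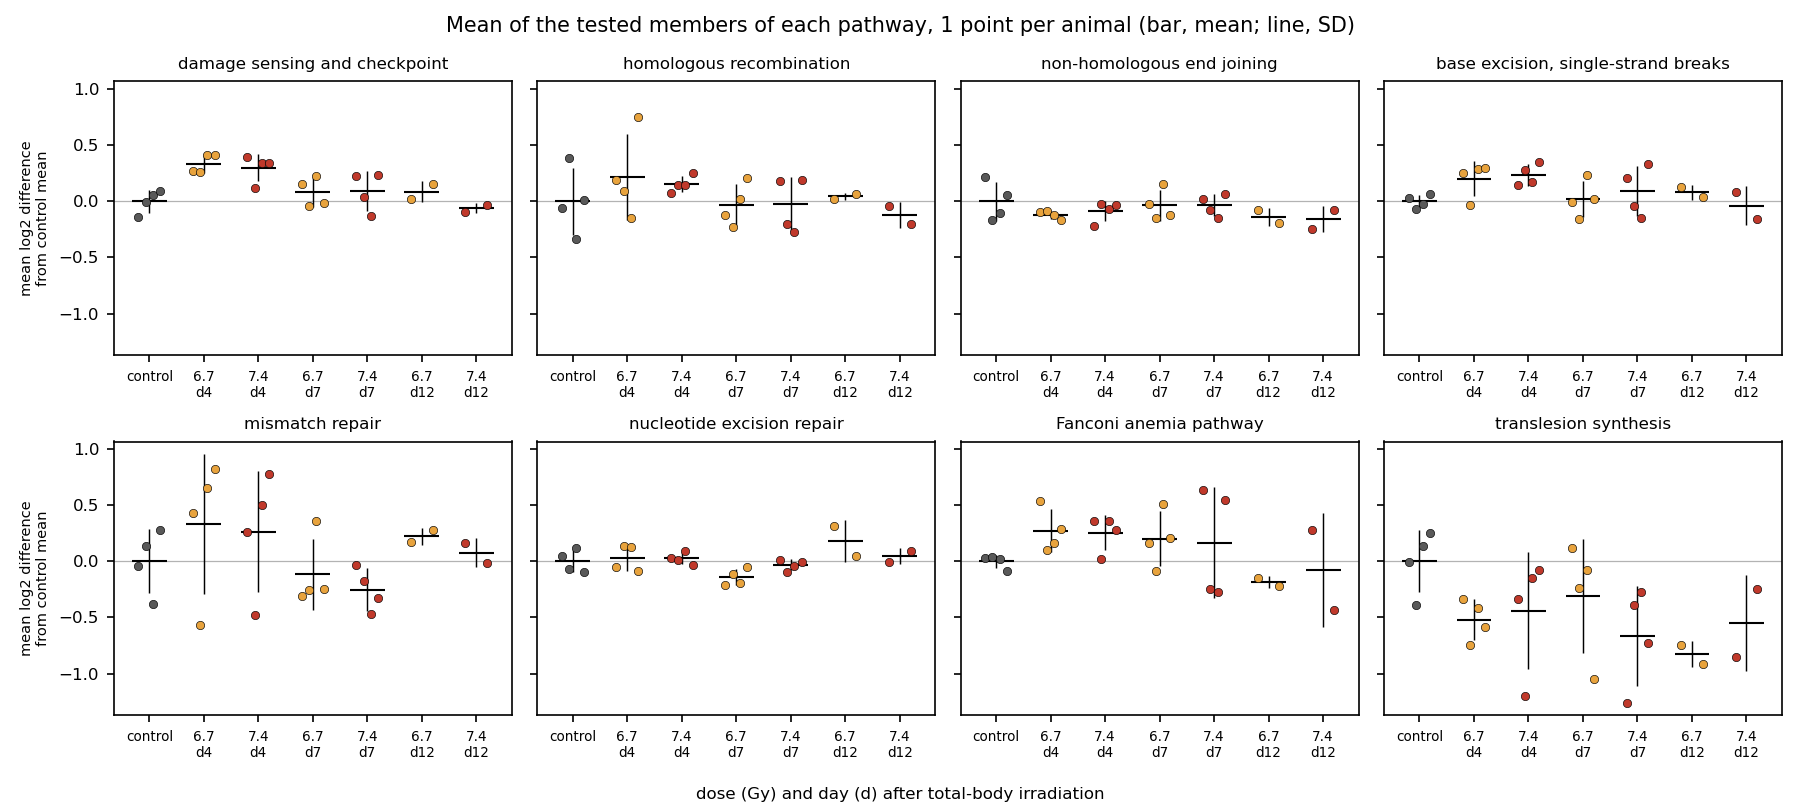
Mean over the tested genes of each pathway of the log2 difference from the control mean, in each animal (points), by dose and day, with group means (bars) and SD (lines). The 10 sensing and checkpoint genes lie between 0.12 and 0.41 on day 4 and between -0.14 and 0.09 in controls, and the 2 mismatch repair genes spread from -0.57 to 0.83 on day 4.

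Averaged over each pathway, the sensing and checkpoint genes were the ones in which every day 4 array lay above every control, at 0.26, 0.26, 0.41 and 0.41 after 6.7-Gy TBI and 0.39, 0.12, 0.34 and 0.34 after 7.4-Gy TBI against -0.14, 0.00, 0.05 and 0.09. The end joining mean overlapped the controls in both groups, and so did nucleotide excision repair. For homologous recombination the mean of 1 control array reached 0.39, and that of 1 day 4 array 0.75, and these are the arrays with the high RAD54L spots. These means are given as a description with no test.

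By day 7 no repair gene was past the test against control at either dose, beside 0.463% and 0.613% of all named genes. At an unadjusted p under 0.05 there were 5 and 4 genes of 42, beside 10.4% and 12.4% of all named genes. The arrays of 3 genes, NBN, RAD51C and CHEK2, lay wholly above the controls after 6.7-Gy TBI and of 0 genes below, beside 4.02% and 3.9% of all named genes. After 7.4-Gy TBI 0 genes lay above and 1, the helicase ERCC3, below, beside 3.67% and 2.89%. In the group of the higher dose FANCI and FANCD2 had SDs of 0.56 and 0.62, against 0.20 and 0.31 in the controls. FANCI was at 0.70, -0.11, -0.52 and 0.49 and FANCD2 at -1.73, -2.57, -2.95 and -1.72, while the mean of the 17 proliferation genes on the same 4 arrays, relative to the control mean, was 0.70, 0.20, -0.31 and 0.80. On each of these 3 measures replicate 3 was lowest and replicates 1 and 4 were the highest, and the part of proliferation in the values of the repair genes was not tested.

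On day 12 none of the 42 was past the test at either dose, beside 0.0136% and 0.0204% of all named genes, and 5 of the 42 at each dose had an unadjusted p under 0.05, beside 7.49% and 7.04%. With 2 animals a group, the 95% interval of a change reached 0.49 to either side for the median gene, against 0.40 on days 4 and 7. Changes below that size were not resolved, and larger ones could miss the adjusted threshold, as those of ATM did at -0.97 and -0.98. With so few arrays many genes did not overlap the controls: 6 of 42 lay above and 4 below at 6.7 Gy, beside 12.7% and 5.75% of all named genes, and 4 above and 5 below at 7.4 Gy, beside 7.7% and 8.17%. Over the 42 genes the median change on day 7 was 0.02 at the lower dose and 0.05 at the higher, and on day 12 it was 0.02 and 0.00.

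The time comparisons over both doses set the later levels against those of day 4. The day 4 arrays shared no array position with those of days 7 and 12, so that position and day cannot be told apart here either. On day 7, 5 of 42 genes (11.9%) were past the test against day 4, beside 27.6% of all named genes, and all 5 were lower: RAD51C by 0.79 on the log2 scale (adjusted p = 0.00149), APEX1 by 0.57 (0.00075), NBN by 0.49 (0.00317), PARP1 by 0.46 (0.00288) and XRCC2 by 0.37 (0.0418). On day 12, 10 of 42 (23.8%) were past the test against day 4, beside 26.1%. Lower were RAD51C by 1.01 (adjusted p = 0.000854), FANCI by 0.98 (0.00314), APEX1 by 0.91 (9.26e-05), FANCD2 by 0.66 (0.0281), XRCC2 by 0.65 (0.00618), NBN by 0.60 (0.00364), LIG3 by 0.45 (0.0389) and PARP1 by 0.43 (0.0174). OGG1 at 0.59 ± 0.18 (adjusted p = 0.0245) and ERCC1 at 0.48 ± 0.14 (adjusted p = 0.0166) were higher. For RAD51C, FANCI, FANCD2, APEX1, NBN and PARP1 the 4 arrays of day 12 lay below all those of day 4. The LIG3 call was lost without any 1 of the 4 arrays of day 12 and without 4 of the 8 arrays of day 4 in turn. The calls of OGG1 and ERCC1 were lost without replicate 1 of either day 12 group. Of all arrays, 6.7 Gy day 12 replicate 1 had the most outlier spots, 712. The share of probes well above background was lowest, at 66.7%, on 7.4 Gy day 12 replicate 1. The FANCD2 call was lost without 7.4 Gy day 4 replicate 4, 6.7 Gy day 12 replicate 1 or 7.4 Gy day 12 replicate 2, and the PARP1 call of day 12 without 6.7 Gy day 12 replicate 2 or 7.4 Gy day 12 replicate 1. The XRCC2 call on day 7 was lost without 9 of the 16 arrays in turn. With normexp background correction XRCC2 changed by -0.05 and -0.07 and was not past the test. Averaged over all its probes, PARP1 changed by 0.18 and OGG1 by -0.055 on day 12 against day 4, the opposite of their brightest probes. Between days 12 and 7 no member was past the test, beside 0.211%.

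**Figure D4:**
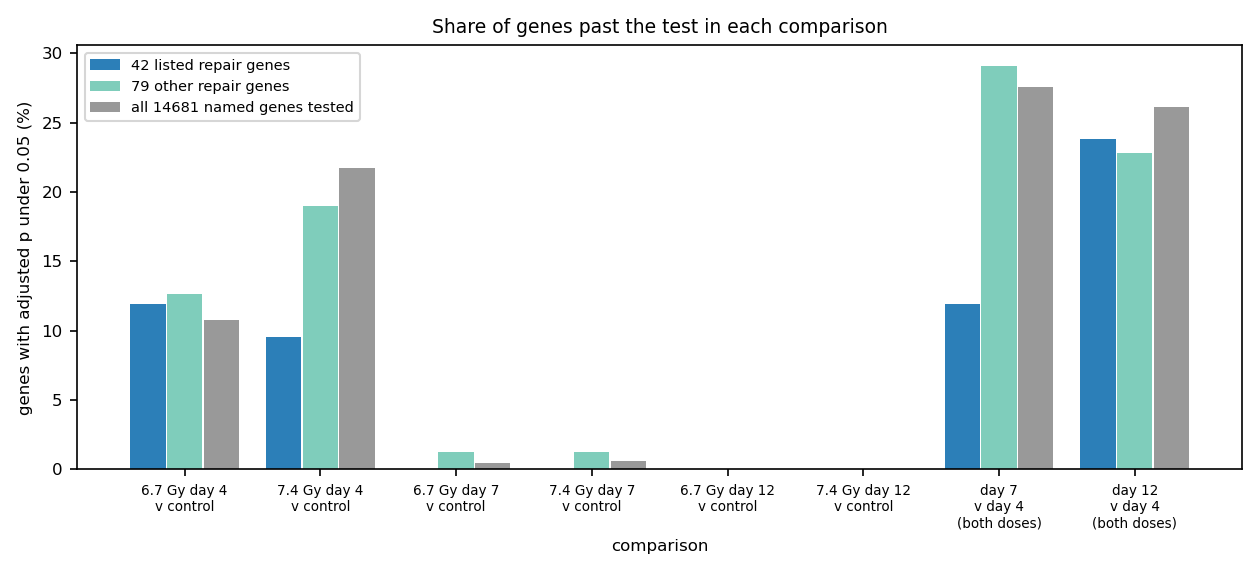
Percentage of genes with adjusted p under 0.05 in 8 comparisons, for the 42 listed repair genes, 79 further repair genes and all 14681 named genes tested. The listed genes are at 11.9% and 9.52% in the day 4 comparisons, beside 10.8% and 21.7% of all genes.

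The 2 doses were not told apart for any repair gene. In none of the 3 contrasts of 7.4 with 6.7 Gy was a member past the test, nor was any other named gene (0%), and at an unadjusted p under 0.05 there were 3, 0 and 3 of the 42 on days 4, 7 and 12, beside 7.23%, 1.78% and 3.56% of all named genes. For the leading genes on day 4, the higher dose differed by 0.34 for RAD51C (95% interval -0.12 to 0.80), 0.27 for NBN (-0.05 to 0.60) and 0.15 for APEX1 (-0.16 to 0.46). ERCC1 and OGG1 differed by -0.41 (-0.75 to -0.08) and -0.53 (-0.97 to -0.09), with adjusted p of 0.706 and 0.717. The PARP1 arrays of the higher dose lay wholly above those of the lower one on day 4, with a difference of 0.20 (adjusted p = 0.898). Nor was any member past the test for a dose difference that shifted from day 4 to day 7, beside 0.00681% of all named genes.

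Over the 7 groups together, 6 of 42 genes (14.3%) were past the moderated F test, beside 19.1% of all named genes: APEX1 (adjusted p = 0.000657), RAD51C (0.00161), NBN (0.00198), XRCC4 (0.0246), XRCC2 (0.0382) and PARP1 (0.0385).

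A second list of 99 further genes of the same pathways, of which 79 were tested, gave the surroundings of these results. On day 4, 10 of the 79 (12.7%) were past the test after 6.7-Gy TBI, 5 higher and 5 lower, and 15 (19%) after 7.4-Gy TBI, 7 higher and 8 lower, near the background at both doses. DDB2, the damage sensor of nucleotide excision repair and a known p53 target, changed most against control among the repair genes tested on day 4. Its levels were 2.11, 2.12, 2.20 and 2.12 in the controls, 3.97, 3.49, 3.74 and 3.43 on day 4 at 6.7 Gy and 3.99, 4.56, 3.94 and 3.99 after 7.4-Gy TBI. DDB2 rose by 1.52 (2.88-fold) and 1.98 (3.96-fold), and it alone of the 79 was past the test on day 7, where it rose by 1.08 and 1.11. On day 12 its 4 arrays lay between 2.52 and 2.90, still above every control, and were not past the test. DDB1, its partner in the same complex, changed by 0.19 and 0.18 on day 4.

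TIPIN, which steadies stalled replication forks and helps ATR signal, was at -1.07, -1.27, -1.59 and -1.17 in the controls. On day 4 at 6.7 Gy it was at -0.60, -0.52, -0.52 and -0.52, above every control. On day 4 at 7.4 Gy it was at -0.06, -0.43, 0.22 and -0.02, and rose by 1.21 (2.30-fold, adjusted p = 0.00802). The other genes named here were past the test with changes below 2-fold and were chosen after their values were seen. Higher at both doses were RBBP8, which starts end resection, MSH3 of mismatch repair and MAD2L2 of translesion synthesis, at 0.44 to 0.70. Lower at both doses were the recombination gene RAD51D (-0.72 and -0.61), the glycosylase MPG (-0.60 and -0.45) and the crosslink nuclease FAN1 (-0.80 and -0.83). RAD51D thus fell where RAD51C rose, on arrays that overlapped the controls for neither. After 7.4-Gy TBI, RECQL5, RNF168, BRE, RAD9A and ALKBH2 were lower as well, by 0.46 to 0.97, while TDG and ERCC6 were higher at 0.40 and 0.56. After 6.7-Gy TBI, SMUG1 and MBD4 were lower as well, by 0.65 and 0.47.

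**Figure D5:**
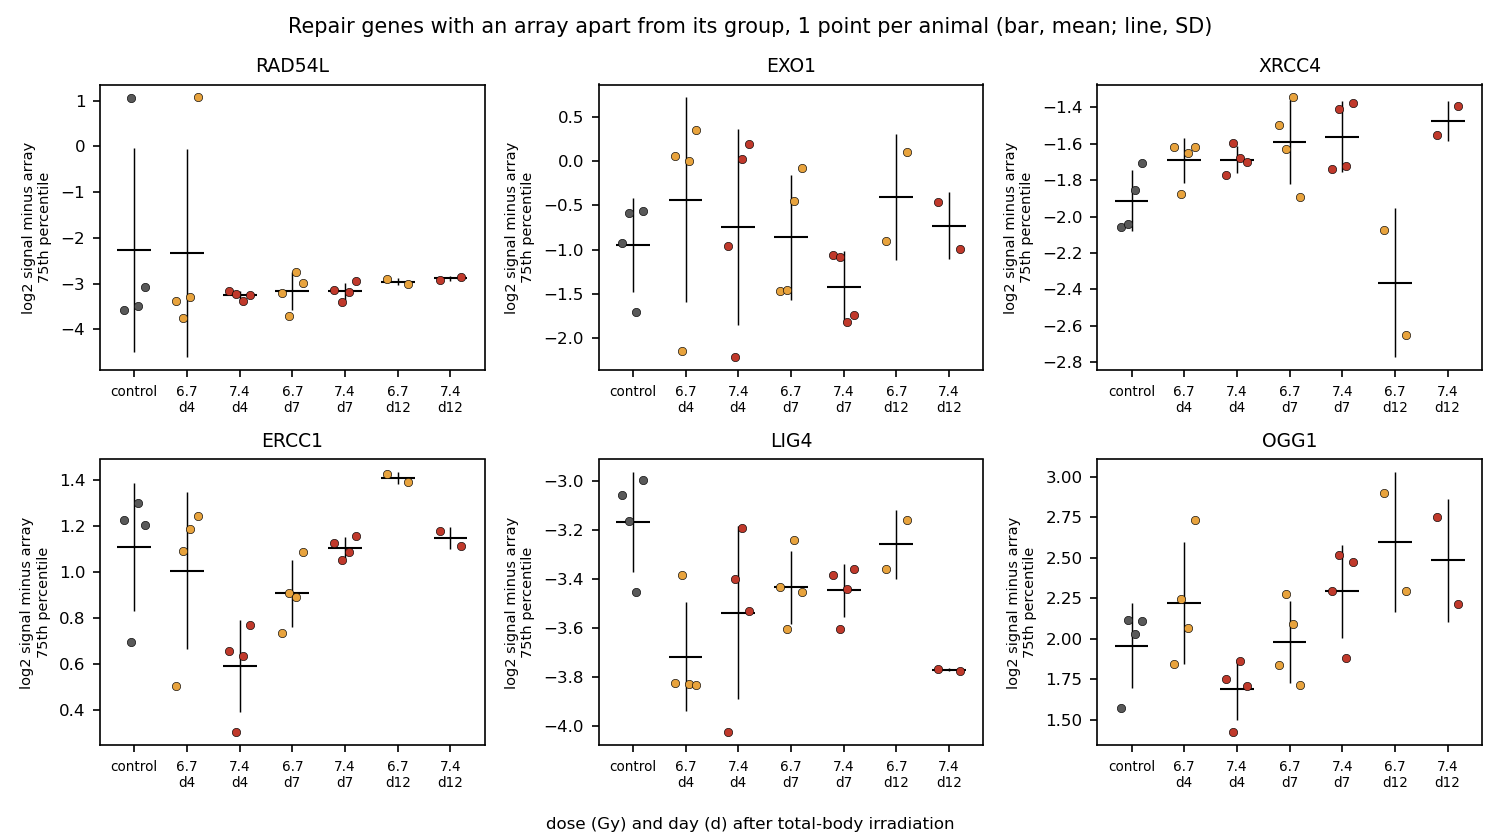
Level of 6 repair genes in each animal (points), as log2 signal minus the array's 75th percentile, by dose and day, with group means (bars) and SD (lines). RAD54L has 2 arrays near 1 and 22 between -3.74 and -2.75, EXO1 has an array near -2 in each day 4 group, and XRCC4 is at -2.07 and -2.65 on day 12 at 6.7 Gy.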

How the data were processed

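Colon RNA of 24 animals was measured on Agilent arrays. The deposited scanner files hold the processed signal of each spot as an intensity, which per the file headers Feature Extraction 11.0.1.1 made by subtracting the background. The authors also deposited a raw intensity table, matching the scanner files in 100% of values (tolerance 0.001, log2), and a normalized log2 table, scaled to the 75th percentile and centred on each probe's median, used as an alternative. Here outlier spots (24 to 712 per array) were left out, spots of a probe were averaged, and log2 signals were scaled to each array's 75th percentile. Probes well above background on at least 2 arrays entered (38234 of 43603, 38214 fitted). Symbols came from the deposited table or, for 3184 probes with a gene number alone, from RefSeq names. In R 4.3.3, limma 3.58.1 fitted 7 group means over the arrays, with moderated tests and Benjamini-Hochberg adjustment, and was tested on simulated data. Intervals and standard errors come from this model, and the number of animals limits the precision.

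The members, pathways and lists were chosen with earlier results of these data known. Named in full were the 12 members with the smallest F-test p, the members with the highest and lowest mean day 4 change in each pathway, and, from the further repair genes, those past the test with a 2-fold change on day 4. A text label gives another last day than the sample labels, which were followed. Alternatives covered background correction, scaling, filters, thresholds, tests, blocks, probe averaging and leaving out each array. Sequences of these genes were not used here. A gene of the further repair list is counted but its values are not reported here.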

Additional observations from a re-analysis of the deposited data

Results flagged for a closer look

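In 98 groups of 4 arrays over the members named in full, 1 array stood apart from the other 3 by Dixon's gap ratio at the 95% level in 10 groups, where chance would give about 1 in 20. Among controls these were RAD54L replicate 2 at 1.05 (others -3.58 to -3.07), OGG1 replicate 1 at 1.57 (others 2.03 to 2.12), ERCC1 replicate 2 at 0.69 (others 1.20 to 1.30) and FANCA replicate 1 at -2.52 (others -3.27 to -3.17). On day 4 at 6.7 Gy they were RAD54L replicate 4 at 1.07, XRCC4 replicate 2 at -1.87, LIG4 replicate 2 at -3.38, XRCC1 replicate 3 at 0.71 and EXO1 replicate 2 at -2.15. On day 7 at 6.7 Gy it was ATM replicate 4 at -4.47, beside -3.15 to -3.06.

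The change after irradiation differed between days 4 and 7 for 5 of the 42 members and between days 4 and 12 for 10, by the test of the difference over both doses. RAD51C, NBN, APEX1, PARP1 and XRCC2 are in both counts.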

How the results depend on the processing

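RAD51C, NBN and APEX1 after 7.4-Gy TBI on day 4 stayed past the test in all 22 alternatives that could be run, apart from APEX1 under a 2-fold threshold. The fit within the shared position and that with position and scan day together could not be run at that dose. In those settings RAD51C and NBN lost their calls after 6.7-Gy TBI. The count of 5 members on day 4 at 6.7 Gy became 3 with spike-in scaling, with the groups compared alone, with the slide as a block or with the position as a block, 2 by the methods' t-test, 1 with a 2-fold threshold or with position and scan day together, 0 within the shared position, and 6 with normexp background correction. Leaving out an array gave 3 to 5 there, with 3 without control replicate 2 or 4 and without 6.7 Gy day 4 replicate 1, 3 or 4. After 7.4-Gy TBI the count of 4 became 2 with a 2-fold threshold and was 3 to 4 without an array, 6 with normexp background correction and 5 by the methods' t-test. A 2-fold threshold left 0 of 5 on day 7 and 1 of 10 on day 12 against day 4. Spike-in scaling left 5 on day 12 against day 4 and 3 of 6 in the F test, and the slide as a block gave 13 on day 12 against day 4. Leaving out an array gave 4 to 8 on day 7 against day 4 (8 without 6.7 Gy day 7 replicate 3), 6 to 11 on day 12 against day 4 (6 without 6.7 Gy day 12 replicate 1) and 4 to 7 in the F test. Counts of 0 stayed at 0 in every alternative that could be run. For days 7 and 12 against control, no setting with the array position could be run. Averaging all probes turned PARP1 to 0.18 and OGG1 to -0.055 on day 12 against day 4, where their other probes differ. Spike-in scaling moved the median change of all named genes to between 0.07 and 0.36 in the 6 irradiated groups (0.19 and 0.20 on day 4), and on that day the 3 leading genes were past the test and LIG4 and ERCC1 were not. Apart from the averaging of probes, the cause was not tested. The replicate numbers do not pair the samples: 13 of 62 same-number pairs correlated above 0.1 (median 0.00) and 9 of 24 arrays correlated best with their own number. Arrays of different groups on the same slide correlated at a median of 0.125, and the main model held no slide term. A replicate block gave 4, 4, 5 and 8 members on day 4 after 6.7 and 7.4 Gy, day 7 against day 4 and day 12 against day 4 (LIG3 and FANCD2 lost their calls), and 4 in the F test.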
